A study of Mus musculus with 7 samples.

Results

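The genes described here are the taste receptors and trace amine-associated receptors of the mouse, placed against the lamin-associated domains (LADs) of mouse embryonic fibroblasts. All protein-coding genes of the RefSeq table (assembly GRCm38.p6, which is mm10) whose symbol starts with Tas1r, Tas2r or Taar were taken. They numbered 53 of 21130 protein-coding genes with a midpoint inside the span of a chromosome's domains: 3 Tas1r, 35 Tas2r and 15 Taar genes. The domains come from CUT&RUN, in which an antibody directs a nuclease to cut and release the DNA around its target. The study had 7 libraries of the cell line labelled iMEF: 2 for Lamin B1, 2 for IgG as the control, 2 for H3K9me2 (antibodies ab1220 and 39041) and 1 for H3K14ac. The series text says that the lines were derived independently from mice of a single colony. No treatment is given, and wild type (WT) stands only in the name of the domain list, which merged the Lamin B1 result. Gene expression and the libraries one by one were not analysed here. The read depth is therefore unknown, no value has a replicate error, and neither the labelled cell type nor transcription of the receptors was checked.

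The lamina is a protein mesh that lines the inner nuclear membrane, and the LADs that touch it are known as regions of low transcription in many cell types. Tas1r genes encode the sweet and umami receptors, which work as pairs that share Tas1r3. Tas2r genes encode the bitter receptors, which are short receptors with a coding sequence in a single exon, and taste cells express several of them together. Trace amine-associated receptors other than Taar1 detect amines in olfactory sensory neurons, where a neuron as a rule uses a single receptor gene. Taar1 is instead known from the brain and other tissues.

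The families fell on different sides of the borders. Bitter receptors lay mostly inside LADs, with 27 of 35 midpoints (77.1%) in a domain. None of the 15 trace amine-associated receptors, which form a single cluster, and none of the 3 Tas1r genes did. Over all 53 receptors this gave 27 in LADs (50.9%), where 24.6% of all protein-coding genes lay in one. The 27 positions are not independent of each other, since 24 of them (88.9%) share a single domain on chromosome 6. Without the genes of that domain, 3 of 11 Tas2r genes (27.3%) and 3 of 29 receptors (10.3%) were in LADs. By midpoints at most 1 Mb apart, the 53 genes formed 10 clusters on 5 chromosomes, 6 of them a single gene, and 4 clusters had a member in a LAD. The list holds 1 position per border, so no test over samples was possible.

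**Figure D1:**
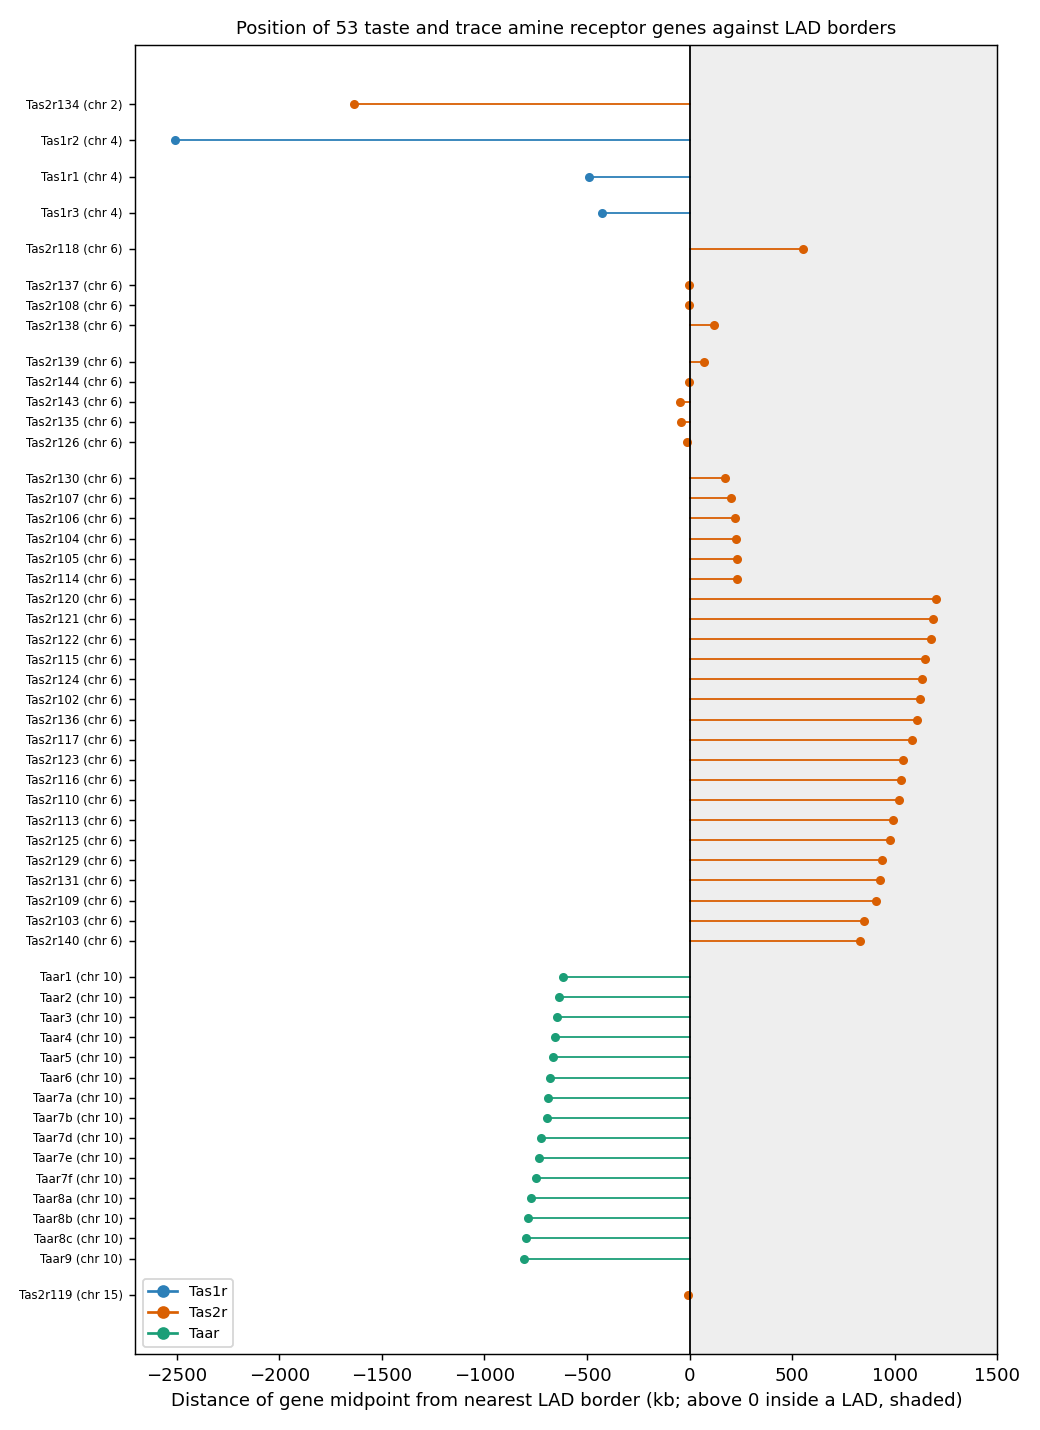
Distance in kb of each receptor gene's midpoint from the nearest LAD border, above 0 inside a LAD (shaded) and below 0 outside, in chromosome order with a space between clusters. The 24 genes of the distal cluster of chromosome 6 lie 173.6 to 1201 kb inside, and the 15 Taar genes 617.4 to 805.5 kb outside.

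Sequences upstream of the genes are shown for both ends of each family's range of placement, from the deepest in a LAD (or, where none was in one, the nearest to one) to the farthest outside, and for Tas2r108, the member nearest to a border (added after its value was seen). Each is the stretch of 250 bases before the annotated start in RefSeq (GRCm38.p6), 5′ to 3′ on the strand of the gene, with CpG dinucleotides in capitals. The table held such a stretch for 45 of the 53 genes, and Taar1, which would belong here, is named only.
Tas2r120 (chr6:132656707-132656956, plus strand): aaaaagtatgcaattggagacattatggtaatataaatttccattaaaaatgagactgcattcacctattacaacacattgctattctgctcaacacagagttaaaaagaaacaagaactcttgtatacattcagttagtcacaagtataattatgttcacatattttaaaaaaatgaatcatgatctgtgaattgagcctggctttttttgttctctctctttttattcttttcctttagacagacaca
Tas2r108 (chr6:40493342-40493591, plus strand): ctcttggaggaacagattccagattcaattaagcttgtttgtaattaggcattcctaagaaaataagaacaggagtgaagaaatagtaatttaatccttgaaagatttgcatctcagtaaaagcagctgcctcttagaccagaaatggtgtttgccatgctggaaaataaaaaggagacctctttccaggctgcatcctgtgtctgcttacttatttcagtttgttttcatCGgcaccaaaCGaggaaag
Tas2r134 (chr2:51627261-51627510, plus strand): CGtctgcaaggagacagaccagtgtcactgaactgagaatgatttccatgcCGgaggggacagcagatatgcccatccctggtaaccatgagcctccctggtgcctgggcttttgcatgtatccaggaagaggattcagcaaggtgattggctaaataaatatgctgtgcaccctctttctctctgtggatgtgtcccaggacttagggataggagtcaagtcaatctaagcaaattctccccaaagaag
Taar9 (chr10:24109535-24109784, minus strand): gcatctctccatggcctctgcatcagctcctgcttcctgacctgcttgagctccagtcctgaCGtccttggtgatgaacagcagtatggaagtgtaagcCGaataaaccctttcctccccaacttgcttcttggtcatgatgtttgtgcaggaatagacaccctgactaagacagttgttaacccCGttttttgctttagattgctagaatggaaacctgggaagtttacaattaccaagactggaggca
Tas1r2 (chr4:139653288-139653537, plus strand): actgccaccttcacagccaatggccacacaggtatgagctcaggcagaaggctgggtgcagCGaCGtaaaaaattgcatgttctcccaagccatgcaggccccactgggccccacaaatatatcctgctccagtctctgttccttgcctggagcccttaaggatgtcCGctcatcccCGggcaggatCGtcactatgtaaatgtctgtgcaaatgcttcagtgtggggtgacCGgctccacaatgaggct
Tas1r3 (chr4:155863354-155863603, minus strand): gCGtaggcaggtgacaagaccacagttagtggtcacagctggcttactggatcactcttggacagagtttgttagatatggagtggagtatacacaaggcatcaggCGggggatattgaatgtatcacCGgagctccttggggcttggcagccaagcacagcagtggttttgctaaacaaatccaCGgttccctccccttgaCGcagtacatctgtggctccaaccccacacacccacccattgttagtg
Tas2r120, the deepest in a LAD, has no CpG and a GC content of 29.6%, and Tas1r2, the farthest outside, has 6 and 55.2%. The annotated start is an ATG in Tas2r120 and not in Tas1r2, so their stretches lie before different kinds of start. Low values were also found outside LADs: the 11 Taar genes with a sequence had medians of 1 CpG and 34.4%. Tas2r108, at a border, has 2 CpGs.

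The LAD with 24 bitter receptors spans chr6:131456732-133886723. It measured 2430 kb, the 135th longest of 1437 domains, and held 37 protein-coding genes, the 22nd highest number. Bitter receptors made up 64.9% of them. They stood in a pair of runs. The first, from Tas2r130 (chr6:131629892-131630830) to Tas2r114 (chr6:131689134-131690063), held 6 genes in 60.2 kb, at 173.6 to 232.9 kb from the border. Tas2r107, Tas2r106, Tas2r104 and Tas2r105 lie between them. Tas2r105, the cycloheximide receptor, was 230.3 kb inside. The second ran from Tas2r120 (chr6:132656957-132657844) to Tas2r140 (chr6:133054855-133055793). Its 18 genes filled 398.8 kb and lay 831.4 to 1201 kb from the nearest border, so every gene of the second run was deeper than every gene of the first. In order, the genes between its ends are Tas2r121, Tas2r122, Tas2r115, Tas2r124, Tas2r102, Tas2r136, Tas2r117, Tas2r123, Tas2r116, Tas2r110, Tas2r113, Tas2r125, Tas2r129, Tas2r131, Tas2r109 and Tas2r103. The middle of the domain falls between Tas2r120 and Tas2r121, and depth fell along the order from there, through 1039 kb at Tas2r123 and 935.1 kb at Tas2r129.

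Between the runs were 966.9 kb with 7 other protein-coding genes, all in the same LAD. Among them were Prb1 (751.9 kb from the border), Prh1 (1114 kb) and Prp2 (1142 kb), genes of the family of proline-rich proteins of saliva. The 2 nearest genes on each side of the cluster, Gm6619 and 5430401F13Rik before it and Smim10l1 and 5530400C23Rik after it, were in the domain as well. Gm6619 was nearest to a border, at 32.2 kb. Of the 5 Tas2r pseudogenes in the table, which the choice of genes left out, all 5 lay in this LAD, from Tas2r141-ps4 at 791.2 kb to Tas2r145-ps3 at 1100 kb from the border.

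The other 3 bitter receptors in LADs were each the only taste receptor gene in their domain. Tas2r118 (chr6:23969161-23970060) lay 555.0 kb inside a LAD of 1997 kb (chr6:22527077-24524569) with 9 other genes, among them Slc13a1, which encodes a sulfate transporter. Tas2r138 (chr6:40612315-40613310), the counterpart of the human phenylthiocarbamide receptor, was 118.3 kb inside a LAD of 1017 kb (chr6:40494520-41512015). That domain held 18 other genes, many of them trypsins and related proteases such as Try4, Try5, Prss1 and Prss3, together with Mgam, a maltase of the gut. Tas2r139 (chr6:42140936-42141895) was 70.6 kb inside a LAD of 632.5 kb (chr6:41579516-42212013), the smallest depth among the 27. Its 11 neighbours in the domain included the calcium channel genes Trpv5 and Trpv6 and Pip, which encodes a secreted protein.

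The bitter receptors of chromosome 6 outside LADs were each close to a border. Tas2r137 (chr6:40491238-40492239) and Tas2r108 (chr6:40493592-40494485) sat at the very end of a gap of 422.5 kb, next to Ssbp1, which encodes a mitochondrial DNA-binding protein. Their midpoints were 2.78 kb and 0.482 kb from the LAD that holds Tas2r138. Tas2r108 ended 35 bp from the first base of that domain. Domain lengths come in steps of 2.5 kb, so the list cannot place Tas2r108 on either side with certainty.

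The other 4 shared a gap of 235.0 kb (chr6:42212014-42447012) between the LAD of Tas2r139 and a LAD of 62.5 kb that holds Olfr458 and Olfr457. Tas2r144 (chr6:42215328-42216287) lay 3.79 kb from the first of these domains. Tas2r143, Tas2r135 and Tas2r126 lay at the far end of the gap, at 46.3, 41.0 and 12.0 kb from the second. Bitter receptors thus stood at both ends of the gap, and the 7 genes between them, Gstk1, Tmem139, Casp2, Clcn1, Fam131b, Zyx and Epha1, were also outside LADs, at 36.2 to 108.0 kb from a border. Zyx encodes zyxin, a protein of focal adhesions, and Clcn1 a chloride channel of skeletal muscle.

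**Figure D2:**
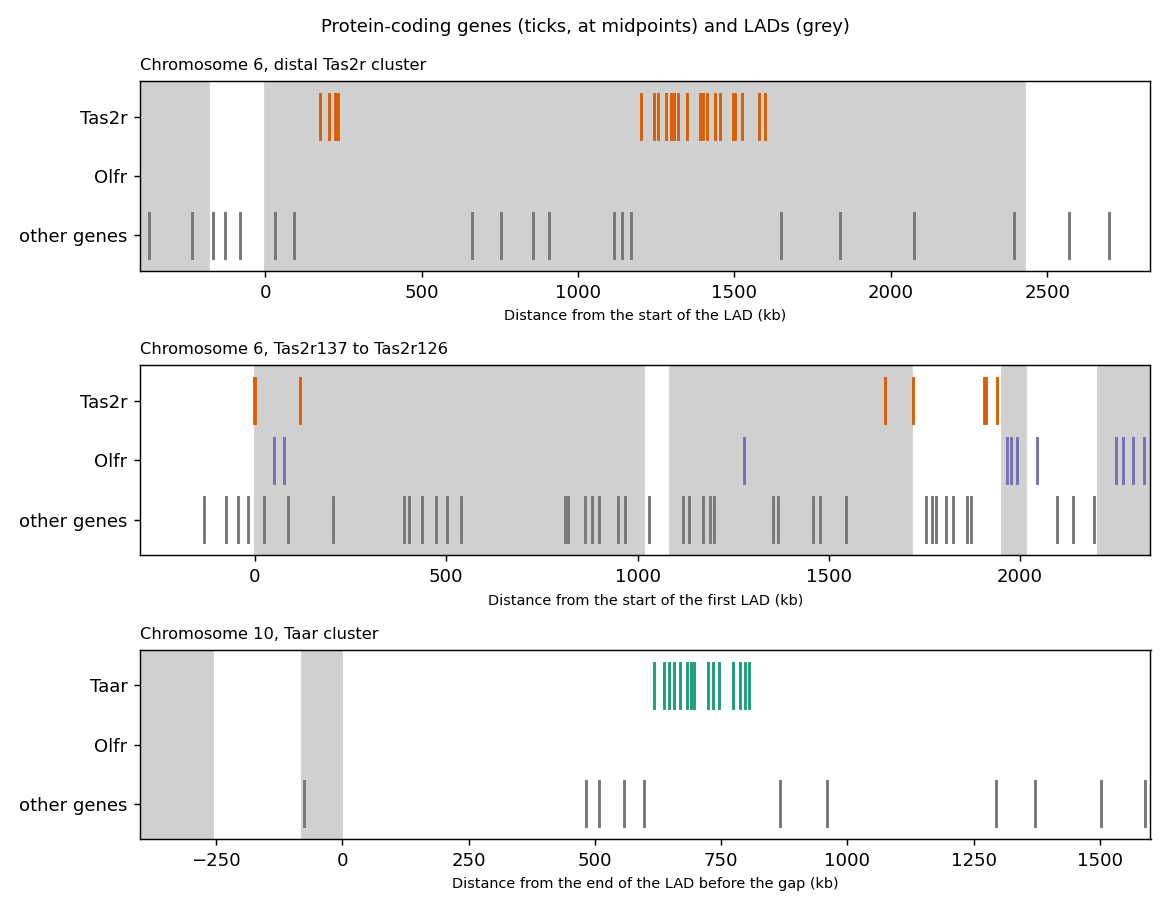
Midpoints of protein-coding genes (vertical ticks) and LADs (grey), with the distance in kb from a named LAD border on the horizontal axis. Shown are the distal Tas2r cluster of chromosome 6, its Tas2r genes from Tas2r137 to Tas2r126, and the Taar genes of chromosome 10. The distal Tas2r genes lie inside 1 LAD of 2430 kb and the Taar genes in a gap. From Tas2r137 to Tas2r126, Tas2r138 and Tas2r139 lie in LADs and the others in gaps near borders. Tas2r118 is not shown.

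Single Tas2r genes on other chromosomes were outside LADs. Tas2r119 (chr15:32177289-32178294) lay 6.71 kb past the end of a LAD of 507.5 kb (chr15:31663582-32171080), at the start of a gap of 10.6 Mb. Its next gene was Sema5a (chr15:32244813-32696341), a long gene for an axon guidance protein, with its midpoint 299.5 kb from the border. Tas2r134 (chr2:51627511-51628407) was the exception among bitter receptors outside LADs, at 1634 kb from the nearest domain in a gap of 4.47 Mb. The nearest genes, Rnd3 and Rbm43, were also far from a border, at 2122 and 1332 kb.

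Of the 8 bitter receptors outside LADs, 7 thus lay within 50 kb of a border (87.5%). Among all protein-coding genes outside LADs, 999 of 15923 (6.27%) were that close. Of olfactory receptor genes outside LADs, 22.7% of 128 were that close, and of vomeronasal receptor genes 28.0% of 25. The 7 are not independent, since Tas2r137 and Tas2r108 share a gap, as do Tas2r144, Tas2r143, Tas2r135 and Tas2r126. In reverse, none of the 27 bitter receptors inside LADs lay within 50 kb of a border, where 13.5% of the 5207 protein-coding genes in LADs did. For olfactory and vomeronasal receptor genes in LADs the shares were 6.32% and 6.13%. The border distance of the 27 had a median of 935 kb and ranged from 70.6 to 1201 kb. The median over all protein-coding genes in LADs was 307.7 kb. The median of 935 kb rests on the distal domain of chromosome 6: without its 24 genes, the other 3 had a median of 118 kb, below that of all protein-coding genes in LADs. Depths over 800 kb were found for 18 of the 27 (66.7%) and for 22.0% of all protein-coding genes in LADs, and these 18 are the second run of the distal cluster. These shares were not tested, because neighbouring genes share their domain.

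Among the 53 receptors, moving the borders by small steps changed the placement of Tas2r genes alone. With each LAD made 10 kb longer at both ends, Tas2r108, Tas2r137, Tas2r144 and Tas2r119 came to lie inside, which gave 31 of 35 Tas2r genes, while the share of all protein-coding genes was 25.4%. At 50 kb, Tas2r126, Tas2r135 and Tas2r143 followed and 34 of 35 were inside (97.1%), against 29.4% of all protein-coding genes. Joining LADs across gaps of at most 250 kb placed the 4 genes of the 235.0 kb gap inside (31 of 35), against 28.3% of all protein-coding genes. With LADs 50 kb shorter, the count stayed at 27, as the smallest depth was 70.6 kb. The counts of Taar and Tas1r genes were 0 in each of these settings. The nearest of them, Tas1r3, was 426.6 kb from a border, so none of these steps could reach them.

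The 15 trace amine-associated receptors formed a compact cluster from Taar1 (chr10:23920406-23921404) to Taar9 (chr10:24108488-24109534). It measured 189.1 kb, with a median spacing of 10.7 kb between midpoints and no other protein-coding gene inside. The gap that holds it spans chr10:23303507-28865989, or 5.56 Mb, and was the 47th longest of 1416 gaps. Of the 15923 protein-coding genes outside LADs, 35.0% lay in gaps at least as long. Taar1 was nearest to a border, at 617.4 kb from the end of a LAD of 80.0 kb, and the distance grew along the cluster to 805.5 kb at Taar9. After Taar2 (636.6 kb) and Taar3 (646.6 kb) came Taar4 (657.5 kb), a receptor for phenylethylamine, and Taar5 (667.7 kb), a receptor for trimethylamine. Taar6 was at 681.6 kb. Taar7a, Taar7b, Taar7d, Taar7e and Taar7f, a group of close relatives, spanned 689.4 to 746.5 kb, and Taar8a, Taar8b and Taar8c 773.5 to 797.9 kb. Taar1, which is not an olfactory receptor, thus lay in the same gap as the 14 others.

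The Taar cluster made up 15 of the 37 protein-coding genes of its gap (40.5%). Its nearest genes on one side were Vnn3 and Vnn1, which encode pantetheinases, at 557.1 and 596.5 kb from the border. On the other side were Stx7, which encodes a syntaxin of endosomes, at 865.6 kb and Moxd1 at 959.6 kb. All 4 were outside LADs, as was the pseudogene Taar7c-ps (710.5 kb), so the cluster, its neighbours and its pseudogene had the same placement.

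The sweet and umami receptor genes stood singly on chromosome 4. Tas1r2 (chr4:139653538-139670280), the specific part of the sweet receptor, was the receptor farthest from a LAD, at 2509 kb. It lay in a gap of 10.5 Mb with 204 other protein-coding genes, between Aldh4a1, a mitochondrial enzyme gene, and Pax7, a transcription factor of muscle stem cells. Tas1r1 (chr4:152027914-152038490), the specific part of the umami receptor, was 489.7 kb from a border. Tas1r3 (chr4:155859268-155863353), which both receptors share, was 426.6 kb from one, in the shortest of these 3 gaps (1.48 Mb). That gap was dense in genes, with 37.0 protein-coding genes per Mb, and the flanking genes Dvl1, a Wnt signalling gene, and Cptp were outside LADs too.

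Coverage of the surroundings by LADs overlapped between bitter receptors in and outside domains. Within 1 Mb on either side, LADs covered 57.7% to 100% of the bases around the 27 bitter receptors in LADs, with a median of 96.8%. For all protein-coding genes in LADs the median was 78.1%. Without the genes of the distal domain, the other 3 in LADs had a median of 75.4%, below that of all genes in LADs. Around the 8 bitter receptors outside LADs the median was 59.2%, compared with 7.76% for all protein-coding genes outside. Most of these 8 lie close together in shared gaps of chromosome 6. The stretches counted around them overlap, so the 59.2% does not rest on independent positions. Around the Taar genes, a single cluster, the median was 6.40%, with a range of 4.00% to 10.4%. Of the 8 bitter receptors outside LADs, 7 had surroundings covered to 25.4% or more, and Tas2r134 was at 0%. Tas2r144, outside, had 74.2%, above the 57.7% of Tas2r138, inside.

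Other chemosensory receptor genes were placed the same way for comparison. Olfactory receptor genes (Olfr) lay in LADs in 88.5% of 1109 cases and vomeronasal receptor genes (Vmn1r and Vmn2r) in 92.9% of 351. The Tas2r share of 77.1% was between these and the background of 24.6%, and the Taar share of 0% was below all of them. The 15 Taar genes form a single cluster in a single gap, so their 0% is the placement of a single locus. This place of the Tas2r share depends on the borders and on the distal domain of chromosome 6. With LADs 50 kb longer it was 97.1%, above the 91.1% of Olfr and the 94.9% of vomeronasal receptor genes, and without the genes of the distal domain it was 27.3%, near the background. Inside LADs, the median border distance was 581.8 kb for Olfr genes and 424.6 kb for vomeronasal receptor genes, below the 935 kb of Tas2r genes but above the 118 kb of the 3 Tas2r genes in other LADs than the distal one of chromosome 6. None of these differences was tested, since receptor genes come in clusters that share domains.

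**Figure D3:**
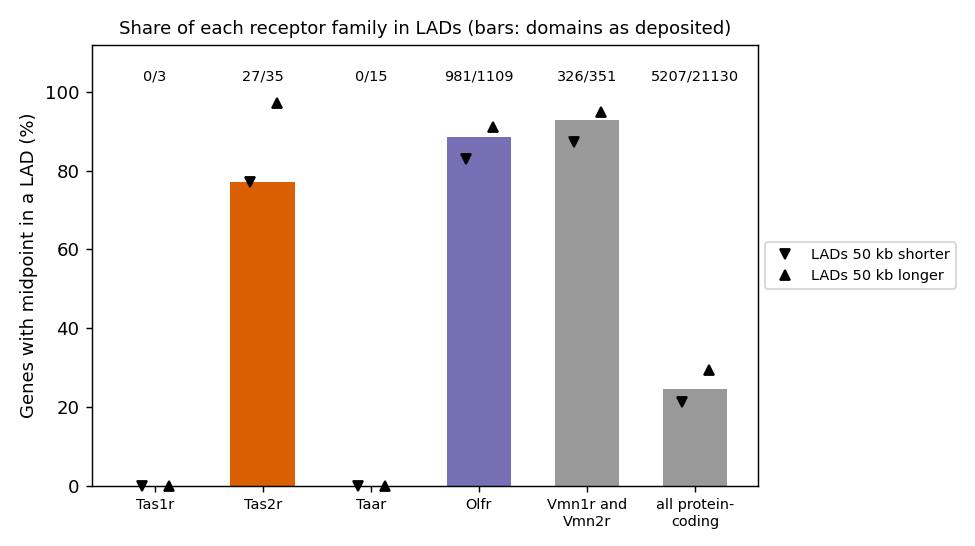
Percentage of genes of each receptor family, and of all protein-coding genes, with a midpoint in a LAD (bars; counts above), and the same with LADs made 50 kb shorter or longer at each border (triangles). The Tas2r share rises from 77.1% to 97.1% with longer LADs, while Tas1r and Taar stay at 0.

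Base composition upstream of the genes was a feature that the choice of genes did not use. In the 250 bases before the start, Tas2r genes had a median of 1 CpG (range 0 to 4; 31 genes) and Taar genes also 1 (0 to 4; 11 genes). The 3 Tas1r genes had 4, 5 and 6. The median was 9 over the 16985 protein-coding genes with a sequence, 2 for those in LADs and 13 for those outside. Olfr and vomeronasal receptor genes each had a median of 1. The 8 Tas2r genes outside LADs also had a median of 1 (0 to 2), so both Taar genes and these Tas2r genes had few CpGs while lying outside LADs.

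GC content in the same stretches had a median of 34.4% for Taar genes and 33.6% for the Tas2r genes in LADs (26.8% to 44.0%; 23 genes). For the 8 Tas2r genes outside LADs it was 41.8% (38.0% to 51.2%), so the ranges overlapped. The 3 genes in LADs other than the distal domain of chromosome 6, Tas2r139, Tas2r118 and Tas2r138, had 37.6%, 42.0% and 44.0%, within or next to the range of those outside. The Tas1r genes had 52.4% to 57.2%, near the median of 58.0% for protein-coding genes outside LADs. The median was 44.0% for protein-coding genes in LADs, 34.0% for Olfr and 36.0% for vomeronasal receptor genes. For 40 of the 45 receptor genes (88.9%) the annotated start is an ATG, where 9.77% of all protein-coding genes with a sequence have one there. The share was 72.7% for Olfr and 87.3% for vomeronasal receptor genes. By family it was 29 of 31 Tas2r, 11 of 11 Taar and 0 of 3 Tas1r genes. The models of the Tas2r and Taar genes thus mostly begin at the coding sequence, and the stretch before such a start need not hold the promoter. The Tas1r values therefore come from stretches before a different kind of start.

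**Figure D4:**
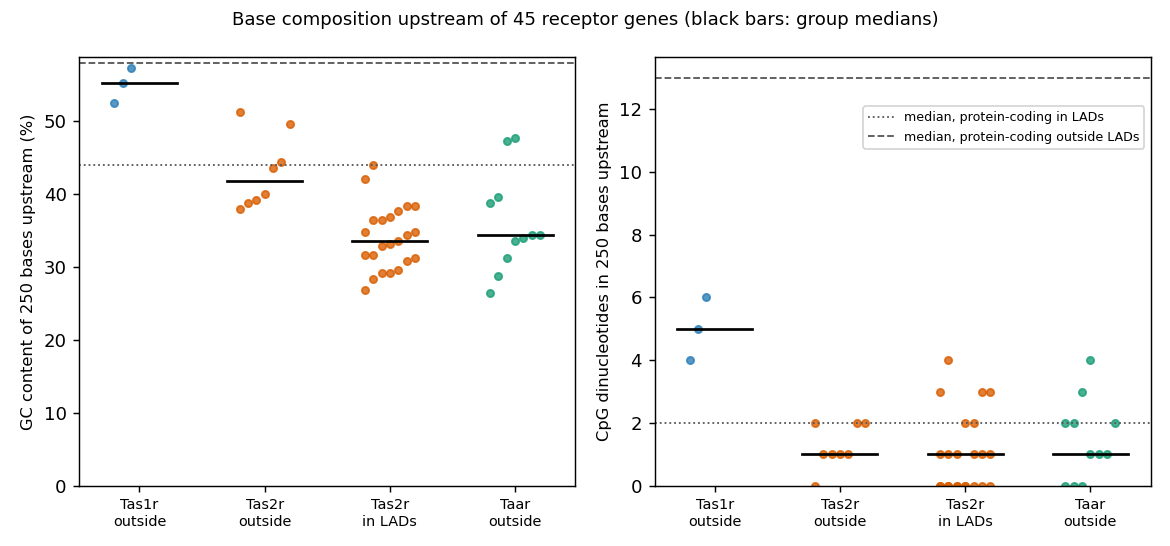
GC content (left) and number of CpG dinucleotides (right) in the 250 bases upstream of 45 receptor genes, 1 point per gene, with black bars for group medians and grey lines for the medians of protein-coding genes in and outside LADs. The Taar genes, outside LADs, have a median GC content of 34.4%, close to the 33.6% of Tas2r genes in LADs.

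Genes of taste cells and of olfactory signalling were also placed. The taste list holds genes that act downstream of Tas1r and Tas2r receptors together with genes of other taste bud cells, such as Otop1 and Pkd2l1 of sour-sensing cells. Of its 13 genes, 3 lay in LADs (23.1%), near the 24.6% of all protein-coding genes. They were Gnat3, the gustducin subunit coupled to taste receptors, at 138.9 kb from a border, Rgs21, a regulator of G protein signalling, at 739.1 kb, and Snap25, a synaptic fusion protein of taste bud cells that do not use these receptors, at 269.0 kb. Plcb2, the phospholipase of taste cells, was 1947 kb outside, and the calcium release channel gene Itpr3 3556 kb. The transcription factor gene Pou2f3, needed for sweet, umami and bitter taste cells, was 2863 kb outside. The olfactory list also holds genes that are not signalling genes themselves, such as Lhx2, Rtp1 and Rtp2. Of its 12 genes, 1 lay in a LAD (8.33%): Ebf1, a transcription factor gene, with its midpoint at 155.1 kb from a border that the gene crosses. The channel subunit gene Cnga4 was the nearest of the others, 19.6 kb outside.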

How the data were processed

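Lamin B1 CUT&RUN reads were aligned with Bowtie2 to mm10, per the submitters' processing notes. The authors deposited 1 list of 1437 domains, whose start and end are positions in base pairs, and its score column held 0 in every line of the deposited file. The domain caller, its threshold and any use of IgG or spike-in DNA are not given in the sources used here. Domain lengths were all (100%) within 125 bp of a multiple of 2500 bp, and the smallest gap was 52499 bp, and no shorter gap appears in the list. Both columns were read as the merged Lamin B1 result, from the name of the list.

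A gene counted as in a LAD where its midpoint did. Of 21887 placed protein-coding genes, 21130 had a midpoint between the first and last domain of their chromosome. Strand and upstream sequence came from a RefSeq table of GRCm38.p6, matched by gene ID. The placement code was tested on simulated data. Counts and distances are descriptions without a test. The receptors, the lists of signalling genes and the rules were chosen with earlier results of these data known. The genes named are all 53 receptors, the signalling lists, the other genes inside each cluster and the 2 nearest on each side, with examples given for the longer sets. The further genes named from the LADs of Tas2r138 and Tas2r139 were chosen after their positions were seen. Of the lists of 15 and 14 signalling genes, 13 and 12 were placed, and the others were not analysed here. Alternatives varied the gene anchor, minimum LAD length, joining and border position. Python 3.11.15 with pandas 2.3.3 was used.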

Additional observations from a re-analysis of the deposited data

How the results depend on the processing

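The number of LADs holding receptors is small, so the bitter receptor count depends on the distal domain of chromosome 6: without it, 3 Tas2r genes and 3 receptors in all were in LADs, and the median border distance of Tas2r genes in LADs was 118 kb instead of 935 kb (chosen after seeing the data, as were borders moved by 2.5 and 10 kb). Under the other 11 alternatives the Tas2r count was between 27 and 34, and the Taar and Tas1r counts were 0 in all 11. No receptor crossed a border, so start site, whole gene and any overlap gave the same counts by construction. The Taar and Tas1r counts were fixed in the rest too. Their nearest gene, Tas1r3, was 426.6 kb from a border in a gap of 1.48 Mb, beyond the moves and joins used. The 27 Tas2r genes lay at least 70.6 kb inside LADs of at least 632.5 kb. Neither LADs 50 kb shorter nor a minimum length of 500 kb could therefore lower that count.

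The share of all protein-coding genes in LADs, 24.6% as reported, was 23.9% by start site, 22.5% for whole genes, 26.0% for any overlap, 21.5% with LADs of at least 500 kb, 25.4% and 28.3% with gaps of at most 100 and 250 kb joined, 21.3% and 29.4% with LADs 50 kb shorter and longer, and 23.8% with genes outside the spans counted. With LADs 50 kb shorter, the shares were 82.9% for Olfr and 87.2% for vomeronasal receptor genes, and with LADs 50 kb longer 91.1% and 94.9%, both below the 97.1% of Tas2r genes. The olfactory signalling count was 0 for whole genes, since Ebf1 crosses a border, and 2 with LADs 50 kb longer. These moves follow from the construction of each alternative. The count of the taste list was 3 in all 5 of its alternatives.

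No paired analysis was possible because the list is merged and has no values per replicate, and leaving out a Lamin B1 replicate was not run for that reason. Read depth is unknown, so how many short domains or gaps near receptor genes depend on it was not tested.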
